A study of Xenopus laevis with 12 samples.

Results

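The comparison described here is that of thioridazine-treated with untreated Xenopus laevis tadpoles kept in large cohorts of 300 embryos. It rests on the 6 libraries of the 12 in the series whose labels give a cohort of 300, namely thioridazine large 1 to 3 and control large 1 to 3. Each library was made from a pool of 15 whole wild-type tadpoles at stage 35. The treated embryos had been kept in 90 µM thioridazine and the controls in medium without it. The labels set the exposure from stage 12.5 to stage 35, whereas the study's methods end it near mid-tailbud stages and let the embryos recover in fresh medium, so the length of exposure is unsettled. The other 6 libraries came from treated and untreated cohorts of 100 and served to estimate the spread between libraries and to ask whether the effect of the drug differed with cohort size. The libraries of a group differed by more than sampling noise. The methods describe embryos pooled from several mothers before they were divided, and the labels do not say whether the 3 libraries of a group came from separate dishes, so the p-values measure the spread between these pools, which may be partly technical.

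Thioridazine, an antipsychotic of the phenothiazine class, blocks dopamine D2 receptors and also binds serotonin, adrenergic, muscarinic and histamine receptors. As a lipophilic weak base it collects in acidic compartments such as lysosomes, and drugs of this chemical kind are known in cultured mammalian cells to disturb the movement of cholesterol out of lysosomes. Animal cells adjust their lipids through the SREBP transcription factors, which sit in the endoplasmic reticulum until sterols fall, are then cut in the Golgi and switch on genes of sterol and fatty acid synthesis. A stage 35 tadpole is a swimming larva that has hatched or is about to, with beating heart, contracting trunk muscle, pigmented eyes in which lens fibres and photoreceptors are maturing, and a ciliated, mucus-secreting skin.

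Each library held between 4887343 and 7497662 expected counts, the large-cohort ones from 4887343 to 7417714, which makes 3 counts worth 0.404 to 0.614 CPM (counts relative to library size) there. The defining markers of the main tissues were all expressed, from muscle (actc1.L, mean 1717 CPM in control large) and cartilage (col2a1.L, 810.1 CPM) to leukocytes (spi1.S, 1.89 CPM), except that no gene with the symbol alb was among those tested. These are whole bodies, so a lower level in a tissue can mean fewer cells of that type or less RNA per cell, which cannot be told apart. In a principal component analysis of the 6 large-cohort libraries the first component held 42.1% of the variance and separated the treatments. The controls lay between -37.4 and -24.8, and thioridazine large 1 to 3 at 13.4, 53.6 and 24.1. Thioridazine large 2 thus stood farthest from the controls.

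Of 25553 genes tested, 573 (2.24%) differed between treated and control libraries at an adjusted p below 0.05 (voom and limma, Benjamini-Hochberg over all genes tested). Thioridazine raised 237 of them (0.927% of genes tested) and lowered 336 (1.31%). The 3 treated libraries lay wholly above or wholly below the 3 controls at each of the 573. These genes were chosen by a test on the same libraries, so this is a description only. Over all genes tested the groups failed to overlap at 11.6% with thioridazine higher and at 12.1% with thioridazine lower. Changes were mostly modest. The called rises had a median log2 fold change of 0.62 and the called falls one of -0.77, against 0.00 over all genes and a median standard error of 0.16, and 57 rises and 115 falls exceeded 2-fold. Xenopus laevis carries homeologous gene copies on L and S chromosomes. Among 6478 pairs with both copies tested, 26 pairs rose together, 26 fell together and 0 moved in opposite directions. A further 201 had a single copy called, whose partner had the same sign in 186. The share of equal signs over all pairs was not counted, and copies may share reads that the counting divided, so these pair counts are a description only. Genes that the annotation leaves as LOC placeholders made up 33 of the rises and 107 of the falls.

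These counts depended on the libraries and on the model. Without control large 3 the number of called genes was 138, without thioridazine large 2 it was 159, without control large 1 it was 208, without thioridazine large 3 it was 244, without control large 2 it was 311 and without thioridazine large 1 it was 534. With 2 surrogate variables added to the model, of which the first had 67.95% of its variance between treatments, 57 genes were called, 54 of them among the 573.

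Over all genes tested 0.927% were called higher and 1.31% lower. The counts of the lists below stand beside these shares, except for lists written after the values were seen. Of the 49 gene lists examined, that of fatty acid and triglyceride metabolism held the most called rises. Of 56 tested genes of fatty acid and triglyceride metabolism, 15 rose (26.8%) and 0 fell, with a list median log2 fold change of 0.23. fads2.S and fads1.S, the desaturases that put double bonds into polyunsaturated fatty acids, were among them. fads2.S stood at 6.99, 5.21 and 4.57 CPM in control large 1 to 3 and at 25.7, 18.5 and 26.9 CPM in thioridazine large 1 to 3, a log2 fold change of 2.02 (SE 0.24, adjusted p = 6.5e-04). fads1.S went from 16.9, 15.8 and 12.4 CPM to 53.5, 51.7 and 71.0 CPM (log2 fold change 1.94, SE 0.17, adjusted p = 3.3e-05). The lowest treated value of each gene was thus well above the highest control value.

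Enzymes of the core of the pathway were also called. fasn.L, which encodes fatty acid synthase, was at 141, 125 and 127 CPM in controls and 270.1, 268 and 302 CPM in treated libraries, a log2 fold change of 1.09 (SE 0.09, adjusted p = 3.3e-05). scd.L, the stearoyl-CoA desaturase that makes monounsaturated fatty acids, was at 24.3, 19.6 and 22.7 CPM and 48.9, 53.5 and 58.7 CPM (log2 fold change 1.25, SE 0.16, adjusted p = 0.0014). Both homeologs of acaca, the acetyl-CoA carboxylase that commits carbon to the pathway, rose with log2 fold changes of 0.80 for acaca.L and 0.76 for acaca.S. elovl5.L, an elongase of polyunsaturated chains, rose with a log2 fold change of 0.76. Among the acyl-CoA synthetases that activate fatty acids, acsl3.L rose from 38.1, 43.1 and 40.1 CPM to 66.5, 79.1 and 73.9 CPM (log2 fold change 0.86, SE 0.09, adjusted p = 3.1e-04), and acsl4.L, acsl4.S and acsbg2.L rose with log2 fold changes of 0.63, 0.67 and 0.66. acsbg2.S, of the bubblegum branch of that family, had the largest rise among them, from 14.7, 17.2 and 13.6 CPM to 42.8, 44.2 and 41.1 CPM (log2 fold change 1.5, SE 0.12, adjusted p = 2.8e-05). Both copies of lipg, the endothelial lipase that splits lipoprotein phospholipids, were higher too, lipg.S with a log2 fold change of 1.76 and lipg.L with one of 1.29. The remaining called members were fads1.L (log2 fold change 1.74), dgat1.L (0.50), the last enzyme of triglyceride synthesis, and the lipase pnpla3.L (0.75). The calls on fads1.L and pnpla3.L were lost without any 1 of the 6 large-cohort libraries. Without control large 3, 9 members were called, and with 2 surrogate variables 7.

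Fewer sterol genes were called. Of 32 genes of sterol sensing, uptake and export 6 rose and 0 fell (list median 0.14), and of 37 genes of sterol synthesis 3 rose and 0 fell (list median 0.37, 31 of 37 above zero). srebf2.S, which encodes SREBP2, the regulator of sterol synthesis, was at 112, 104 and 104 CPM in controls and 201, 207 and 193 CPM after thioridazine (log2 fold change 0.90, SE 0.08, adjusted p = 5.3e-05). Its homeolog srebf2.L had a log2 fold change of 0.39 (SE 0.16) and did not pass the test (adjusted p = 0.22). srebf1.S, the regulator of fatty acid synthesis, rose from 28.6, 36.1 and 25.4 CPM to 54.6, 68.9 and 79.3 CPM (log2 fold change 1.17, SE 0.17, adjusted p = 0.0033). A second locus annotated as sterol regulatory element-binding protein 1, LOC108701685, rose by a log2 fold change of 1.27 (SE 0.15). Both homeologs of ldlr, the receptor that takes up low density lipoprotein, and of insig1, which holds SREBP back in the endoplasmic reticulum, were called, with log2 fold changes of 1.07 for ldlr.L, 0.84 for ldlr.S, 1.61 for insig1.L and 1.21 for insig1.S.

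Among the synthesis enzymes, msmo1.S, a methylsterol oxidase, had the largest called rise. Its levels were 2.26, 1.86 and 2.23 CPM in controls and 6.23, 5.40 and 4.86 CPM in treated libraries (log2 fold change 1.33, SE 0.28, adjusted p = 0.022). The lowest treated library lay above the highest control. The call on msmo1.S was lost without any 1 large-cohort library but thioridazine large 3, and with 2 surrogate variables. For sterol sensing the number called was 2 without control large 3 and 1 with 2 surrogate variables. For sterol synthesis it was 0 without any 1 control library or without thioridazine large 2, 1 without thioridazine large 3, and 0 with the surrogate variables.

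**Figure D1:**
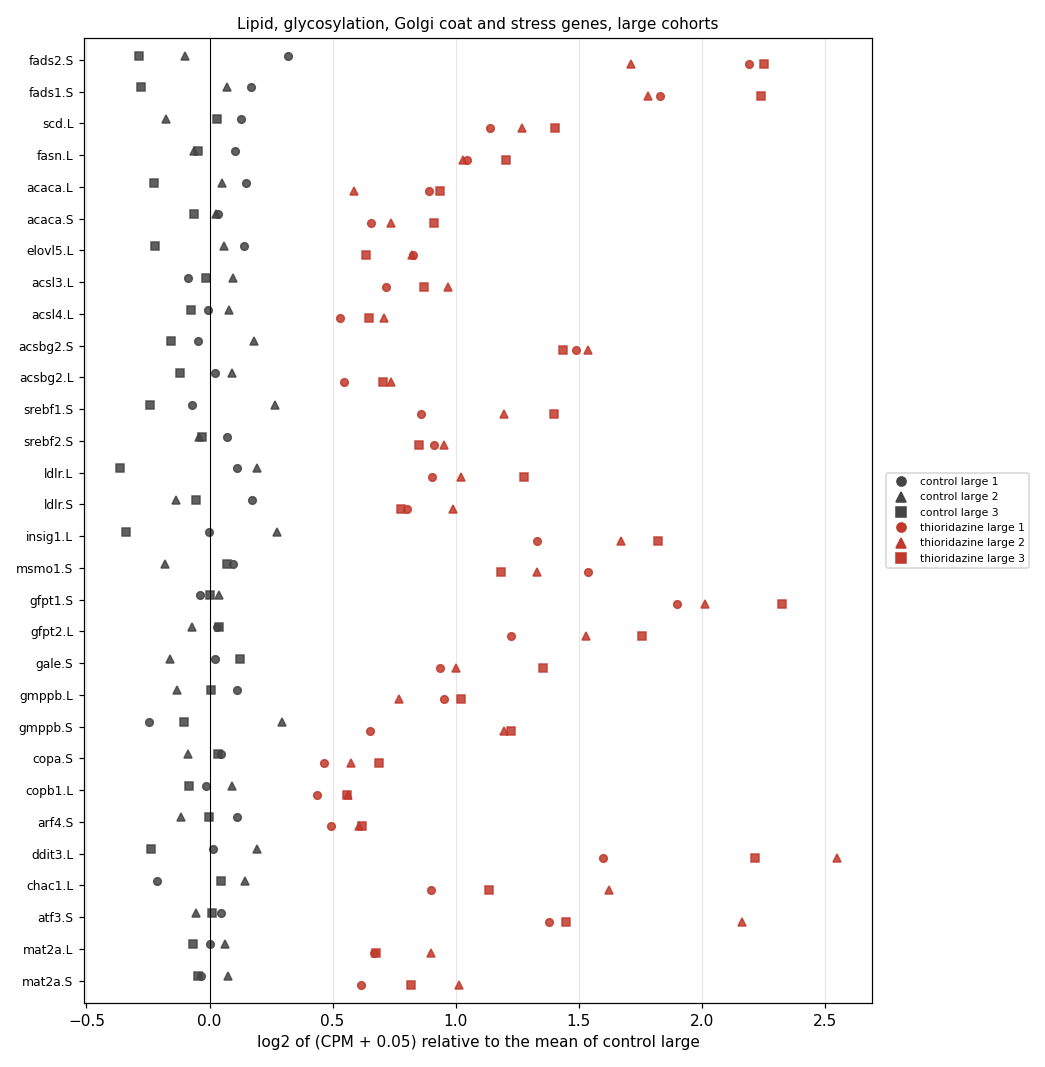
Levels of 30 genes that rose in large cohorts, as the log2 of CPM + 0.05 in each library relative to the mean of the 3 control large libraries; grey marks are controls, red marks are thioridazine, and marker shapes give the replicate. All 3 treated libraries lie to the right of all 3 controls at every gene shown, and thioridazine large 3 is the highest library at gfpt1.S.

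The smallest p of all genes tested belonged to gfpt1.S. This gene encodes glutamine-fructose-6-phosphate transaminase, the entry enzyme of the hexosamine pathway, which makes the UDP-N-acetylglucosamine used for protein glycosylation and hyaluronan. It was at 109.9, 116 and 113 CPM in controls and 421, 456 and 567 CPM after thioridazine, a log2 fold change of 2.08 (SE 0.11, adjusted p = 1.8e-07). gfpt2.L, which encodes the second form of the enzyme, rose from 131, 122 and 131 CPM to 299, 369 and 433 CPM (log2 fold change 1.5, SE 0.13, adjusted p = 3.5e-05). These were the only 2 of 21 tested genes of hexosamine synthesis and hyaluronan to be called, and the list median was 0.19, or 0.05 with 2 surrogate variables, 0.11 without control large 3 and 0.12 without thioridazine large 3. Both stayed called in each of the 11 alternative fits and without each of the 6 large-cohort libraries.

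Some other genes that supply and attach sugars were called. A list of 60 nucleotide sugar and N-glycosylation genes, written after these values were seen, held 9 called rises and 0 falls (median 0.20). gale.S, the UDP-galactose epimerase, went from 33.5, 29.5 and 36.0 CPM to 63.2, 66.1 and 84.6 CPM (log2 fold change 1.09, SE 0.12, adjusted p = 3.0e-04). Both copies of gmppb, which makes GDP-mannose, rose with log2 fold changes of 0.90 for gmppb.L and 1.06 for gmppb.S, and pmm1.L, the phosphomannomutase one step earlier, rose by 0.70. The others were alg5.S (0.89), dpagt1.L (0.47) and stt3a.S (0.37), which act in building and transferring the N-glycan, and slc35a2.S (0.75) and slc35a3.2.S (0.62), which carry nucleotide sugars into the Golgi. Without control large 1, 5 of the 60 were called, and with 2 surrogate variables 3.

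Coat proteins move cargo between the endoplasmic reticulum and the Golgi. Of 52 genes of the COPI and COPII coats and ARF GTPases, a list again written after the values were seen, 11 rose, 0 fell and 41 were not called (median 0.14). All 11 belonged to COPI or its ARF switch and none to COPII. This contrast came from values seen before the list was written and was not tested. Over all genes tested 0.927% were called higher, but a list written from its values cannot be fairly set against that share. copa.S, a coat subunit, was at 125, 114 and 124 CPM in controls and 167, 180.5 and 195 CPM after treatment (log2 fold change 0.57, SE 0.09, adjusted p = 0.0033). copb1.L was at 102, 109 and 96.7 CPM and 139, 151 and 151 CPM (log2 fold change 0.52, SE 0.07, adjusted p = 0.0017), and arf4.S, a GTPase of the Golgi, at 196, 167 and 182 CPM and 256, 277 and 279 CPM (log2 fold change 0.57, SE 0.07, adjusted p = 0.0013). The other called members, copa.L, copb1.S, copb2.L, copb2.S, copg1.S, arf4.L, arf1.L and arfgap2.S, had log2 fold changes from 0.27 for arf1.L to 0.56 for arf4.L. The number called was 3 without control large 3, 4 without thioridazine large 3, 6 without control large 1, 6 without thioridazine large 2, 7 without control large 2 and 2 with 2 surrogate variables.

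The integrated stress response is a brake on translation that, through the transcription factors ATF4 and CHOP, raises genes of amino acid supply and redox defence. Of 39 tested members 7 rose and 0 fell, and 35 lay above zero (median 0.31). ddit3.L, which encodes CHOP, was at 2.00, 2.27 and 1.67 CPM in controls and 6.09, 11.8 and 9.38 CPM after treatment (log2 fold change 2.10, SE 0.35, adjusted p = 0.0071). chac1.L, a glutathione-degrading target of the pathway, was at 16.1, 20.7 and 19.3 CPM and 34.9, 57.7 and 41.1 CPM (log2 fold change 1.25, SE 0.18, adjusted p = 0.0027). Thioridazine large 2 was the highest library at both genes.

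The remaining called members of the stress list were transcription factors, a sensor kinase and metabolic genes. atf3.S had a log2 fold change of 1.64, with thioridazine large 2 at 11.7 CPM against controls between 2.48 and 2.66 CPM. atf5.2.S rose by 0.76, eif2ak3.S, which encodes the endoplasmic reticulum kinase PERK, by 0.57, the mitochondrial folate enzyme mthfd2.L by 0.51, and sestrin 2 (sesn2.S) by 0.73, all on the log2 scale. atf4.L, which is controlled largely at translation, had a log2 fold change of -0.19 (SE 0.07) and did not pass the test (adjusted p = 0.16), nor did asns.L, the asparagine synthetase (1.76, SE 0.56, adjusted p = 0.12), whose controls were at 1.33, 1.24 and 1.11 CPM and treated libraries at 4.25, 4.01 and 5.04 CPM. The number called was 3 without control large 1, control large 3 or thioridazine large 2, 4 without control large 2, and 0 with 2 surrogate variables. With 1 surrogate variable the median was 0.17.

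The unfolded protein response showed a narrower change. Of 46 endoplasmic reticulum chaperones and response genes 5 rose and 0 fell, with a median of 0.08. They were both copies of syvn1, the ubiquitin ligase of endoplasmic reticulum-associated degradation (log2 fold changes 0.55 for syvn1.L and 0.35 for syvn1.S), both of the co-chaperone dnajb9 (0.60 for dnajb9.L and 0.48 for dnajb9.S) and manf.L (0.38). syvn1.L stood at 41.6, 39.9 and 46.4 CPM in controls and 64.8, 60.7 and 61.8 CPM after treatment (SE 0.10, adjusted p = 0.012). None of 53 chaperones of the cytosol and mitochondria was called, nor any of 65 proteasome subunits or 41 genes of the p53 pathway and apoptosis. Without any 1 library other than thioridazine large 1 a single endoplasmic reticulum gene was called, and with 2 surrogate variables 0.

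Of 64 amino acid carriers 6 rose, 0 fell and 58 were not called (median 0.13). slc7a5.L, the light chain of the leucine carrier, was at 88.4, 76.6 and 89.1 CPM in controls and 132, 129 and 119 CPM after treatment (log2 fold change 0.58, SE 0.08, adjusted p = 0.0029), and its homeolog slc7a5.S rose by 0.72. slc3a2.S, which encodes the heavy chain that carries it to the membrane, rose by 0.34, and slc1a5.L, slc7a3.L and slc6a14.2.L by 0.49, 0.55 and 0.59 on the log2 scale. mat2a, the enzyme that makes the methyl donor S-adenosylmethionine, was among the firmest rises outside the lists: mat2a.L went from 129.5, 135 and 124 CPM to 206, 241 and 207 CPM (log2 fold change 0.75, SE 0.08, adjusted p = 3.1e-04) and mat2a.S rose by 0.82. None of 33 aminoacyl-tRNA synthetases was called. Between 1 (without control large 3) and 6 carriers were called as single libraries were left out, with 2 each without control large 1 or thioridazine large 2, 3 each without control large 2 or thioridazine large 3, and 0 with 2 surrogate variables.

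Some steep rises by fold were in genes with few counts in the controls. Of 5 tested ARL11-like small GTPases, a list written after the values were seen, 4 were called higher and all 5 lay above zero. The role of this family in tadpoles is not described in the sources used here. arl11l.1.S was at 2.26, 1.65 and 0.927 CPM in controls and 25.2, 26.2 and 45.0 CPM after thioridazine (log2 fold change 4.20, SE 0.53, adjusted p = 0.0011). arf11l.L was at 1.73, 0.207 and 0.371 CPM and 10.3, 16.8 and 21.7 CPM (log2 fold change 4.43, SE 0.94), and arl11l.1.L at 0.666, 0.207 and 0.742 CPM and 5.07, 5.72 and 13.8 CPM (log2 fold change 3.60, SE 0.89). arl11l.2.L had 3 counts over the 3 controls and 49 over the treated libraries, a ratio of 15.0 with a 95% exact counting interval from 4.84 to 75.3. Outside the family LOC121396929, annotated as threonylcarbamoyl-AMP synthase-like, had 2 counts over the controls and 93 over the treated libraries, a ratio of 42.7 (95% exact counting interval 11.5 to 358.1), and its call was lost without any 1 control library or thioridazine large 3. Copies of this family may share reads, which the counting would then have divided among them. With thioridazine large 1 left out all 4 ARL11-like genes stayed called, with thioridazine large 3 left out 2, with any other library left out 1, and with 2 surrogate variables 1.

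Further called rises fell outside any single pathway. ptafr.L, the receptor for platelet-activating factor, was at 4.79, 5.58 and 2.41 CPM in controls and 21.2, 39.3 and 23.5 CPM after treatment (log2 fold change 2.70, SE 0.51, adjusted p = 0.014). tnfrsf12a.S, the receptor of the cytokine TWEAK, was at 0.932, 1.03 and 1.11 CPM and 3.82, 10.8 and 5.21 CPM (log2 fold change 2.46, SE 0.59, adjusted p = 0.042). Its call was lost without any 1 large-cohort library but thioridazine large 1, and with 2 surrogate variables. Of 42 immediate early genes fos.S rose (log2 fold change 2.04) and nr4a2.L fell (-0.90), 33 lay above zero and the median was 0.36. The call on fos.S was lost without any 1 library but thioridazine large 1 and with a replicate block, and that on nr4a2.L without control large 1, control large 3, thioridazine large 2 or thioridazine large 3. With 2 surrogate variables none of the 42 was called and the median was 0.03. Of 62 genes of drug and oxidative stress handling cyp3a4.1.L (1.41), cyp2a6.3.L (0.41) and gclm.L (0.51), a subunit of the first enzyme of glutathione synthesis, rose, and without control large 3 none of the 3 was called. Of 50 lysosomal genes the hydrolases gusb.S (0.94) and ctsb.L (0.41) and the membrane protein cln3.L (0.78) rose, 0 fell, and 42 lay above zero, with a median of 0.18. Without control large 1, control large 3 or thioridazine large 2 none of the lysosomal genes was called, 1 was without control large 2 or thioridazine large 3, and none with 2 surrogate variables, where the median was 0.11.

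Of the 49 lists, that of the lens held the most called falls. Crystallins are the packed, long-lived proteins that make the lens transparent. Of 64 tested lens crystallin and fibre genes 36 fell, 0 rose and all 64 lay below zero (median -1.50), against 1.31% of all genes tested called lower. Their summed level ranged from 741.0 to 1026 CPM in the controls and from 295.2 to 445.7 CPM in the treated libraries, with thioridazine large 2 lowest. crygdl.24.L, a gamma crystallin, was at 18.2, 25.6 and 24.3 CPM in controls and 6.67, 5.60 and 9.32 CPM after treatment (log2 fold change -1.65, SE 0.19, adjusted p = 5.5e-04). cryba1.2.L, a beta crystallin, was at 68.7, 90.5 and 81.6 CPM and 46.6, 39.6 and 42.4 CPM (log2 fold change -0.88, SE 0.12, adjusted p = 0.0022). LOC121400699, annotated as gamma-crystallin-1-like, fell by a log2 fold change of -1.82 and cryg1 by one of -1.46, while cryba1.L, crybb1.L and crybb1.S had log2 fold changes of -0.77, -1.06 and -0.92.

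A search of product names for crystallin, made after the values were seen, found 95 tested genes, of which 51 fell and 0 rose. Many are near-identical neighbours whose reads the counting had to divide, so single copies are uncertain. As single libraries were left out between 16 (without thioridazine large 2) and 31 of the 64 lens genes stayed called, with 18 without control large 3 and 24 without either control large 2 or thioridazine large 3. With 1 or 2 surrogate variables 0 were called, and the median of the 64 was -0.99 with either.

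Of 52 photoreceptor and phototransduction genes 18 fell, 0 rose and 2 lay above zero (median -0.94). rho.L, which encodes the rod pigment rhodopsin, was at 95.5, 68.2 and 139 CPM in controls and 26.6, 5.85 and 20.5 CPM after thioridazine (log2 fold change -2.71, SE 0.43, adjusted p = 0.0049). Its homeolog rho.S was at 82.3, 54.8 and 111 CPM and 27.6, 8.49 and 16.4 CPM (log2 fold change -2.33, SE 0.39, adjusted p = 0.007), and rho.2.L at 136, 81.3 and 177 CPM and 47.3, 15.6 and 32.6 CPM (log2 fold change -2.12, SE 0.42, adjusted p = 0.017). At all 3 genes thioridazine large 2 was lowest of the treated libraries and control large 2 lowest of the controls, with no overlap.

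Members that act downstream of rhodopsin were among the 18. grk1.L, the kinase that shuts rhodopsin off, had the steepest fall, from 4.88, 4.22 and 8.67 CPM to 0.914, 0.154 and 0.356 CPM (log2 fold change -3.58, SE 0.61, adjusted p = 0.0076). gnat1.L, the rod transducin, fell by a log2 fold change of -1.54, sag.L, the rod arrestin, by one of -1.58, prph2.L, which shapes the outer segment discs, by one of -1.76, and the cone arrestin arr3.L by one of -0.87. The number of called photoreceptor genes was 4 without thioridazine large 2, 5 without control large 1, 6 without control large 3, 6 without thioridazine large 3, 19 without control large 2, 22 without thioridazine large 1, and 0 with 1 or 2 surrogate variables. The list median was -0.19 with 1 surrogate variable and -0.23 with 2.

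Of 56 genes of the neuronal cytoskeleton and synaptic vesicles 16 fell, 0 rose and 4 lay above zero (median -0.44). nefm.S, a neurofilament chain, was at 30.3, 38.9 and 38.2 CPM in controls and 18.4, 18.8 and 14.6 CPM after treatment (log2 fold change -1.02, SE 0.17, adjusted p = 0.0069). tubb2b.S, a neuronal tubulin, was at 417, 413 and 445 CPM and 344, 295 and 292 CPM (log2 fold change -0.46, SE 0.07, adjusted p = 0.0044). Both copies of the complexin cplx1, which clamps vesicle fusion (cplx1.L -0.61, cplx1.S -0.55), of the dendrite protein map2 (map2.L -0.48, map2.S -0.45) and of gad1.1, which makes the transmitter GABA (gad1.1.L -0.58, gad1.1.S -0.51), fell on the log2 scale.

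No call was made among the receptors and enzymes that thioridazine acts on or near. Of 23 tested genes of the dopamine pathway and other thioridazine targets 0 were called and the median was -0.03. drd2.S, the D2 receptor, had a log2 fold change of -0.57 (SE 0.58, against a median of 0.16 over all genes). Only 8 of the 23 were above 5 CPM in 3 libraries, so a modest change in most of them could go unseen. The number of called neuronal genes was 4 without control large 3 or thioridazine large 2, 6 without thioridazine large 3, 9 without control large 1 or control large 2, and 0 with 1 or 2 surrogate variables, where the list median was -0.25 with either.

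**Figure D2:**
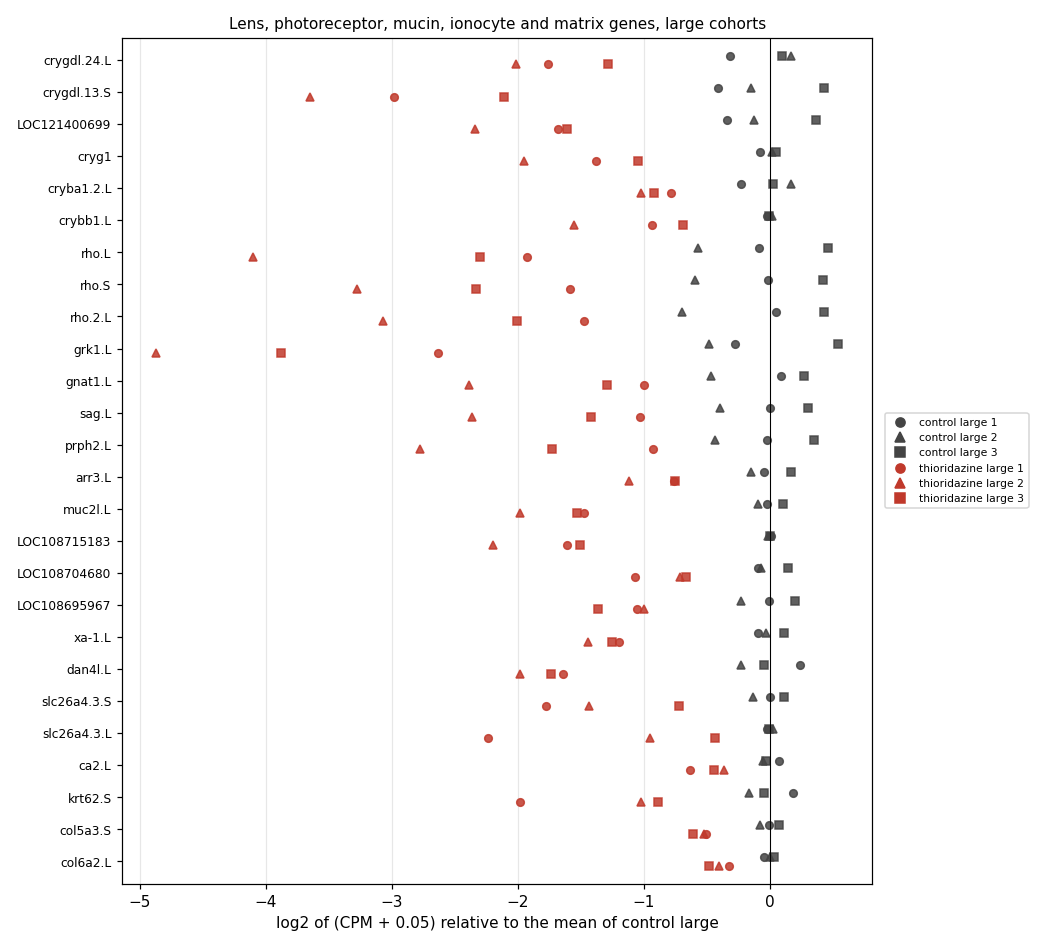
Levels of 26 genes that fell in large cohorts, as the log2 of CPM + 0.05 in each library relative to the mean of the 3 control large libraries; grey marks are controls, red marks are thioridazine, and marker shapes give the replicate. All 3 treated libraries lie left of all 3 controls, and thioridazine large 2 is lowest at the rhodopsin genes.

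The hatching list had the lowest median of the 49 lists. The hatching gland secretes astacin metalloproteases, known in Xenopus as UVS.2, that digest the vitelline envelope around the embryo. Of 21 hatching enzymes and epidermal proteases 11 fell, 1 rose, 9 were not called and 6 lay above zero. The median log2 fold change was -4.34. Members at 0 counts stay below it even at the bound that 3 counts allow, so setting them there could not move it. The summed level of the list ranged from 445.1 to 542.7 CPM in the controls and from 255.6 to 298.2 CPM in the treated libraries. astl3a.1.L was at 49.9, 61.3 and 60.7 CPM in controls and 0, 0 and 0.174 CPM after thioridazine, or 999 counts over the 3 controls against 1 count, a ratio of 1087 with a 95% exact counting interval from 194.7 to 42978. astl3b.1.L was at 8.25, 8.47 and 8.90 CPM in controls and had 0 counts in all 3 treated libraries, at least 54.8-fold lower if the treated group is credited with 3 counts in all. LOC108699319, annotated as embryonic protein UVS.2-like, was at 16.6, 22.1 and 18.0 CPM and likewise at 0 counts, at least 119.3-fold lower. The controls of these genes lay close together and the treated libraries were at or next to 0.

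Other members of the list were called lower too. astl2f.S was at 7.46, 10.7 and 10.4 CPM in controls and 0.425, 0.617 and 0.174 CPM after treatment (log2 fold change -4.34, SE 0.51, adjusted p = 6.5e-04). xepsin.S, an epidermis-specific serine protease, was at 26.1, 41.3 and 36.5 CPM and 0.283, 0.462 and 0.347 CPM (log2 fold change -6.26, SE 0.92, adjusted p = 0.0029). crisp1.5.S, a cysteine-rich secretory protein, was at 4.06, 8.17 and 5.86 CPM and at 0 counts, at least 37.0-fold lower. The called falls also held astl2d.2.L, with 117 counts against 1 (ratio 127.3, 95% exact counting interval 22.4 to 5071), astl2e.2.L, at 15.2, 27.9 and 29.7 CPM and 0, 0.771 and 0.521 CPM, and 3 more UVS.2-like loci, LOC108705791, LOC121397175 and LOC121397312. Outside the list LOC108718284, annotated as a cysteine-rich venom protein, went from 7.52, 10.2 and 9.54 CPM to 0 counts, at least 56.9-fold lower. Of all called genes, 9 had at most 3 counts over the treated libraries, namely 7 members of the hatching list, LOC108718284 and the histone locus LOC121398066.

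One relative went the other way. crisp1.7.L was at 8.92, 10.7 and 9.09 CPM in controls and 15.3, 18.0 and 16.7 CPM after treatment (log2 fold change 0.81, SE 0.18, adjusted p = 0.032). This call was lost without any 1 large-cohort library but thioridazine large 1, and with 2 surrogate variables. Between 6 and 10 falls were called as single libraries were left out, the lowest without thioridazine large 1 or thioridazine large 3, and 9 with 2 surrogate variables. Near-identical copies of the UVS.2 family may share reads.

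**Figure D3:**
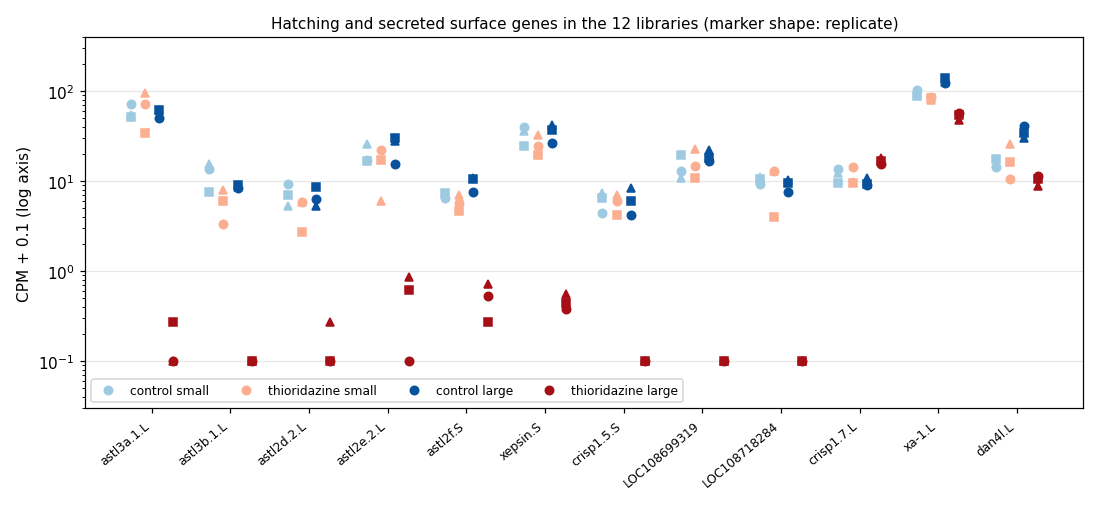
CPM + 0.1, on a log axis, of 12 hatching, secreted and surface genes in all 12 libraries, with the 4 groups by colour and the replicates by marker shape. In thioridazine large the astacin, xepsin.S and crisp1.5.S genes sit at or near 0 while the other 3 groups lie together, and xa-1.L and dan4l.L are lowest in thioridazine large.

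Some mucin genes were called lower. muc2l.L was at 2883, 2739 and 3136 CPM in controls and 1053, 739 and 1013 CPM after thioridazine (log2 fold change -1.66, SE 0.20, adjusted p = 6.5e-04). LOC108715183, annotated as mucin-5AC, a gel-forming mucin, was at 1863, 1833 and 1861 CPM and 608, 403 and 652 CPM (log2 fold change -1.77, SE 0.19, adjusted p = 2.8e-04). Both stayed called in each of the 11 alternative fits and without each large-cohort library. Of 21 tested genes with a mucin product name, picked once their values were known, 4 fell, 0 rose, 17 were not called and 8 lay above zero (median -0.30, or -0.003 without thioridazine large 1). Besides mucin-5AC these were the mucin-2 locus LOC108704680 (log2 fold change -0.81), the mucin-4-like locus LOC108695967 (-1.12) and the mucin-17 locus LOC108711676 (-0.41). spdef.S, a transcription factor of mucus-secreting cells in mammals, fell by a log2 fold change of -0.87. otogl.L, a goblet cell marker of tadpole skin, had a log2 fold change of -0.37 and did not pass the test (adjusted p = 0.16). Of the 13 genes of the mucus and goblet cell list 9 lay above zero (median 0.02) and spdef.S was the single call, and it was lost without control large 1, control large 3, thioridazine large 1, thioridazine large 2 or thioridazine large 3.

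xa-1.L, an anterior ectoderm gene, had the smallest p of the falls, with 122, 127 and 140.3 CPM in controls and 56.8, 47.7 and 54.4 CPM after treatment (log2 fold change -1.29, SE 0.09, adjusted p = 3.2e-06). The XA-1-like locus LOC108696795 fell by a log2 fold change of -1.58 and dan4l.L, annotated as a cell wall protein DAN4-like gene, by one of -1.79. The cement gland and anterior ectoderm list of 31 genes did not hold xa-1.L or LOC108696795. None of the 31 was called, with 17 above zero (median 0.03). ag1.L, the cement gland marker, was at 75.9, 79.1 and 89.1 CPM in controls and 102, 99.7 and 84.6 CPM after treatment.

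Ionocytes are the acid-base and salt transporting cells of the skin. Of 29 ionocyte transport genes 4 fell and 0 rose (median -0.27). slc26a4.3.S, a pendrin-type anion exchanger, was at 61.6, 56.0 and 66.4 CPM in controls and 17.9, 22.7 and 37.3 CPM after treatment (log2 fold change -1.34, SE 0.20, adjusted p = 0.0029). Its homeolog slc26a4.3.L was at 48.7, 50.6 and 49.3 CPM and 10.5, 25.6 and 36.7 CPM (log2 fold change -1.25, SE 0.27, adjusted p = 0.027). At both copies the treated libraries were spread widely, with thioridazine large 1 lowest. ca2.L, the carbonic anhydrase that supplies protons and bicarbonate, fell by a log2 fold change of -0.48 and rhbg.L, an ammonia channel, by one of -1.02. Of 40 V-type ATPase subunits only the accessory subunit atp6ap1.1.S was called (-0.79). The ionocyte regulator foxi1.L had a log2 fold change of -0.39 and its homeolog foxi1.S one of -0.74. Neither copy passed the test (adjusted p = 0.3 and 0.13). Without control large 1, control large 3 or thioridazine large 2, and with 2 surrogate variables, 2 ionocyte genes were called, and the list median was -0.13 without thioridazine large 1.

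Among 28 keratins 3 rose and 2 fell. The falls were both copies of krt62, krt62.S from 218, 172 and 187 CPM to 48.6, 94.8 and 104 CPM (log2 fold change -1.31, SE 0.26, adjusted p = 0.016) and krt62.L with a log2 fold change of -1.66. The rises were keratins of simple epithelia, krt8.1.L (0.57), krt18.1.S (0.85) and krt7.L (0.29). krt7.L kept its call in only 4 of the 11 alternative fits. Calls among the keratins numbered 0 without control large 3, 1 without control large 1, 2 without thioridazine large 2, 3 without thioridazine large 3, and 0 with 2 surrogate variables.

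Of 47 collagen chains 5 fell, 0 rose and 2 lay above zero (median -0.33). col5a3.S was at 327, 312 and 347 CPM in controls and 232, 229 and 215 CPM after treatment (log2 fold change -0.54, SE 0.09, adjusted p = 0.007), and col6a2.L at 213, 221 and 226 CPM and 176, 167 and 158 CPM (log2 fold change -0.40, SE 0.06, adjusted p = 0.0062). The others were col17a1.L, the hemidesmosome collagen (-0.70), col6a1.S (-0.48) and col14a1.L (-0.42). Of 35 cartilage genes none was called, 3 lay above zero and the median was -0.32, with col2a1.L, the main cartilage collagen, at 821, 736 and 873 CPM in controls and 761, 514 and 822 CPM after treatment. Thioridazine large 2 was the low library, and the summed cartilage level was 2330 CPM there against 3253 and 3449 CPM in the other treated libraries and 3507 to 4099 CPM in controls. The number of called collagens was 2 without control large 1, control large 3 or thioridazine large 2, 3 without control large 2 or thioridazine large 3, and 0 with 2 surrogate variables. The collagen median was -0.05 and the cartilage median -0.004 with 2 surrogate variables, -0.09 and -0.04 with 1, and the cartilage median was -0.12 without thioridazine large 2.

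Of 162 tested histone genes 9 fell, 1 rose, 152 were not called and 23 lay above zero, with a median of -0.35. Their summed level was 15199 to 15398 CPM in the controls and 10826 to 13228 CPM in the treated libraries. In small cohorts the sum was 10933 to 12049 CPM in controls and 10099 to 12115 CPM after treatment. Control large was thus the group that stood apart, and thioridazine large lay near the small-cohort groups. LOC121399129, annotated as histone H4, was at 226, 227 and 256 CPM in controls and 134, 141 and 176 CPM after treatment (log2 fold change -0.67, SE 0.09, adjusted p = 0.0021). LOC121402225, a histone H3 locus, was at 1342, 1264 and 1298 CPM and 825, 906 and 1106 CPM (log2 fold change -0.47, SE 0.11, adjusted p = 0.041). These are multigene families with near-identical copies, so the division of reads among loci is uncertain. None of 87 genes of DNA replication and mitosis was called (median 0.04). The number of histone falls was 4 without control large 3, 5 without thioridazine large 1, 13 without thioridazine large 3 and 6 with 2 surrogate variables.

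**Figure D4:**
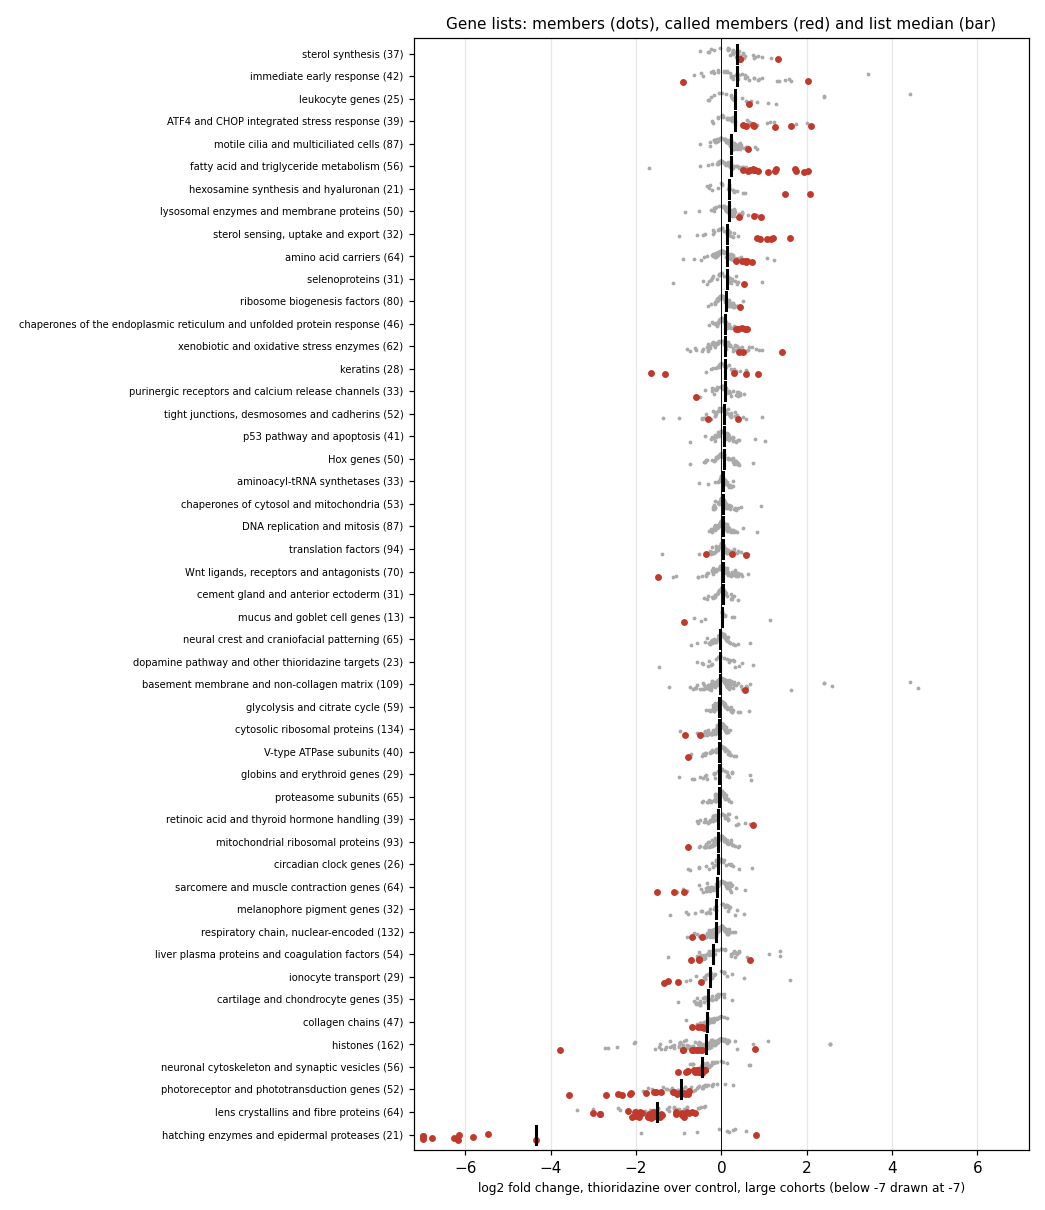
Log2 fold change of thioridazine over control in large cohorts for the members of 49 gene lists, ordered by list median; grey dots are members, red dots called members, black bars list medians, and the number of tested members stands in brackets. The hatching, lens and photoreceptor lists have the lowest medians (-4.34, -1.50 and -0.94) and the sterol synthesis list the highest (0.37).

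Several tissues and processes held few called genes. Of 64 sarcomere genes 3 fell (4.69%, against 1.31% of all genes tested) and 0 rose (median -0.10), namely des.2.L, acta1.L and myh13.S. acta1.L kept its call in only 3 of the 10 alternative fits that tested it. At myh13.S thioridazine large 2 was at 45.6 CPM and the other treated libraries at 98.0 and 108 CPM, against 142, 147 and 145 CPM in controls. Of 54 liver genes the acute phase genes fgb.L (-0.71), serpina1.L (-0.52) and serpina1.S (-0.52) fell and the complement gene c5.2.L (0.68) rose on the log2 scale. That is 7.41% of the list called, against 2.24% of all genes tested. Of 25 leukocyte genes mpo.S, the myeloperoxidase of granulocytes, rose by 0.65 and the median was 0.32. Of 87 genes of motile cilia rsph3.L rose by 0.63, 69 lay above zero and the median was 0.24. That call is 1.15% of the cilia list, near the 0.927% of all genes tested called higher. The summed cilia level was 1207 to 1266 CPM in control large and 1344 to 1562 CPM in thioridazine large. In small cohorts it was 1284 to 1443 CPM in controls, above every control large library, and 1158 to 1470 CPM after treatment. The cilia median in small cohorts was -0.08. Treated libraries lay wholly above the controls at 10 of the leukocyte and 25 of the cilia genes, and wholly below at 2 and 1. Over all genes tested these shares were 11.6% and 12.1%. rpl36.L and rpl37.S fell among 134 ribosomal proteins, and atp5mg.L and ndufs6.L among 132 nuclear-encoded respiratory chain genes, whose medians were -0.05 and -0.13. These falls are 1.5% of each list, near the 1.31% of all genes tested called lower, and are no result about either list. Nothing was called among 65 neural crest and craniofacial genes, 32 melanophore genes, 50 Hox genes, 26 clock genes, 29 globin and erythroid genes or 59 genes of glycolysis and the citrate cycle. Between 0 and 1 gene was called in each of these lists as single large-cohort libraries were left out. A fit of the large cohorts alone, which called 776 genes, called 1 globin and erythroid gene higher and 2 lower, and 2 glycolysis and citrate cycle genes higher. With quality weights, which called 878 genes, 1 melanophore gene was called higher and 1 lower, and 2 glycolysis and citrate cycle genes higher. In the sarcomere, liver, leukocyte, cilia, ribosomal and respiratory lists, no gene was called without control large 3 and none with 2 surrogate variables. With 2 surrogate variables the leukocyte median was 0.21 and the cilia median 0.14, and the leukocyte median was 0.48 without control large 1 and 0.19 without control large 3.

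Retinoic acid and Wnt genes gave isolated calls. They made up 2.56% and 1.43% of their lists, near the 2.24% of all genes tested that were called. cyp26c1.L, a retinoic acid degrading enzyme, rose from 24.1, 27.8 and 23.7 CPM to 38.3, 46.7 and 40.1 CPM (log2 fold change 0.73, SE 0.17, adjusted p = 0.039), the single call of 39 genes of retinoic acid and thyroid hormone handling. dkk2.L, a secreted Wnt modulator, fell from 2.66, 2.48 and 2.41 CPM to 1.13, 0.617 and 0.869 CPM (log2 fold change -1.49, SE 0.34, adjusted p = 0.037), the single call of 70 Wnt genes. The call on dkk2.L was lost without any 1 of the 6 libraries, and that on cyp26c1.L without any but thioridazine large 1. With the large cohorts alone, where 776 of all genes tested were called, 4 genes of the retinoic acid and thyroid hormone list rose and 1 fell. In that fit 0 of the Wnt genes were called.

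The study varied cohort size, so the effect in large cohorts was set against that in the separate libraries of small cohorts. Of the 237 rises 210 had the same sign in small cohorts, with a median log2 fold change of 0.39 there against 0.62, and of the 336 falls 299 did, with a median of -0.50 against -0.77. The medians in large cohorts belong to genes chosen for passing the test there, so the smaller values in small cohorts are a description only. In small cohorts 719 genes were called, of which 226 were also called in large cohorts, that is 31.4% of the one list and 39.4% of the other, 225 with the same sign. Lens, photoreceptor and neuronal lists had medians in small cohorts of -1.43, -0.67 and -0.42, and fatty acid and sterol synthesis lists 0.18 and 0.47. gfpt1.S had a log2 fold change of 2.35 in small cohorts. The lists of histones, collagens and hatching enzymes had medians of -0.05, -0.13 and -0.17 there. The integrated stress response had a median of 0.73 in small cohorts and 0.31 in large ones, a difference that was not tested over the list.

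The interaction of treatment and cohort size tests the difference itself. It called 5 genes (0.0196% of those tested), all with a more negative effect in large cohorts, and 1978 genes had an unadjusted p below 0.05. xa-1.L had a log2 fold change of -1.29 in large and -0.20 in small cohorts (difference -1.09, SE 0.12, adjusted p = 0.005). For astl2f.S the difference was -4.01 (SE 0.55, adjusted p = 0.016), with 6.43, 7.11 and 7.22 CPM in control small and 5.54, 6.85 and 4.52 CPM in thioridazine small. For crisp1.5.S it was -6.05 (SE 0.85, adjusted p = 0.016) and for LOC108699319 -8.01 (SE 1.1, adjusted p = 0.016), with small-cohort libraries at 14.6, 22.8 and 10.8 CPM after treatment. In large treated cohorts both genes were at 0 counts. LOC121398066, a histone H3 locus with few counts, was at 2.43, 1.74 and 1.66 CPM in control large, 0, 0.478 and 0 CPM in thioridazine large, 0, 0 and 0 CPM in control small and 2.24, 2.28 and 1.16 CPM in thioridazine small, so its direction turned with cohort size (difference -8.44, SE 1.00, adjusted p = 0.005). As at other histone loci, the division of reads among near-identical copies is uncertain at LOC121398066. Without thioridazine large 1 the interaction called xa-1.L alone. The calls on astl2f.S, crisp1.5.S and LOC108699319 were also lost without thioridazine large 2 or thioridazine large 3, and those on crisp1.5.S and LOC108699319 without thioridazine small 1. Without thioridazine small 3 the interaction called 40 genes.

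**Figure D5:**
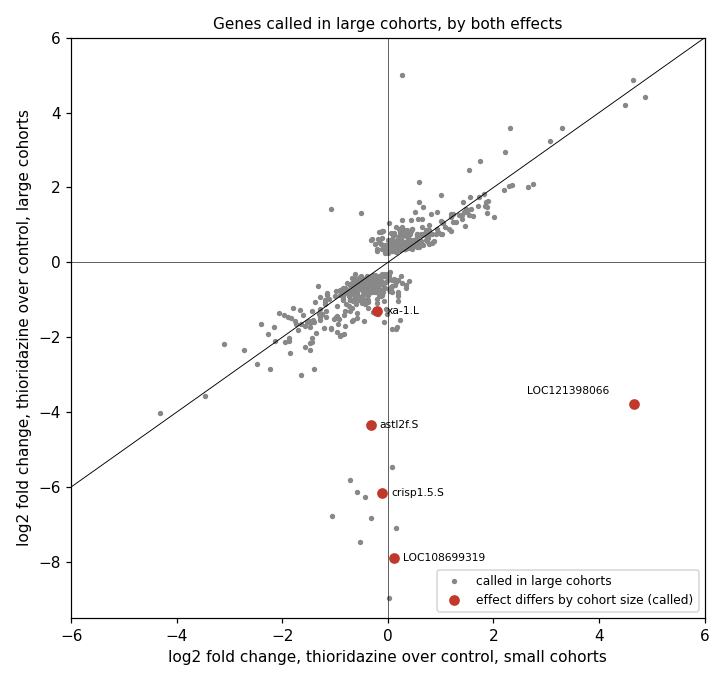
Log2 fold change of thioridazine over control in small cohorts (x axis) and large cohorts (y axis) for the 573 genes called in large cohorts; the diagonal marks equal effects and red points are the 5 genes whose effects differ by the interaction test. Most points lie in the quadrants of equal sign, and the hatching genes form a column near zero on the x axis and below -4 on the y axis.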

How the data were processed

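RNA of 12 pools of 15 tadpoles was sequenced by the authors as stranded, ribosomal RNA-depleted total RNA with single reads. Per the labels and methods, ribosomal reads were removed with Bowtie2 and the rest aligned with STAR and quantified with RSEM. A version is given for the ribosomal reference sequence, whereas those of the tools and of the genome the genes were counted on, and strandedness at counting, were not stated in the sources used here. The deposited table holds RSEM expected counts for 42638 genes, in which 32.6% of values are not whole, as RSEM divides reads shared between copies. A second table deposited by the authors holds log2 CPM values, which voom recovered from the counts. CPM is not scaled by gene length, so levels are compared between libraries and not between genes.

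Genes above 1.8 CPM in at least 3 of the 12 libraries were kept. The methods give this threshold, but it left 25553 genes of the deposited counts, a number that differs from the one the methods state and from the 26050 genes of the log2 CPM table. TMM scaling, voom and limma (version 3.58.1) were fitted to 4 group means, and a gene was called at a Benjamini-Hochberg adjusted p below 0.05, two-sided. The methods name 2 surrogate variables and a batch for the principal components without saying what the fit held, and the labels give no batch, so the model held neither. Alternatives used sva (version 3.50.0), edgeR (version 4.0.16) and DESeq2 (version 1.42.0) on counts rounded to whole numbers, other filters, scalings and weights, the large cohorts alone, the log2 CPM table, a replicate block and the omission of single libraries.

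Genes were named by a rule: the largest changes with a mean of at least 2 CPM, the smallest p-values, the members of each list with the smallest p, any member of the sterol, stress, dopamine, pigment, cartilage and neural crest lists, homeologs of named genes, and the smallest interaction p-values. Genes outside it, namely the glycosylation, COPI and ARL11-like lists and some mucin and crystallin loci, were chosen after their values were seen. The comparison, the lists and the rule were all chosen with earlier results of these data known, so lists carry counts and medians and no test. Counting intervals and floors (3 counts) cover counting error only. Symbols matched the RefSeq gene table for all but a few identifiers, and promoter sequences and motifs were not analysed here. Some results are not reported here.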

Additional observations from a re-analysis of the deposited data

Results flagged for a closer look

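5 genes had an effect of thioridazine that differed between large and small cohorts by the interaction test (voom and limma). All of these differences were negative, the effect in large cohorts minus that in small ones on the log2 scale. xa-1.L differed by -1.09 (SE 0.12, adjusted p = 0.0050), with treated libraries below controls by more in large cohorts. LOC108699319, a UVS.2-like locus, differed by -8.01 (SE 1.1, adjusted p = 0.016), the hatching enzyme gene astl2f.S by -4.01 (SE 0.55, adjusted p = 0.016), and crisp1.5.S by -6.05 (SE 0.85, adjusted p = 0.016). The histone H3 locus LOC121398066 differed by -8.44 (SE 1.00, adjusted p = 0.0050) and had 3 counts over the treated libraries of large cohorts and 0 in every control library of small cohorts. The fitted differences of LOC108699319, crisp1.5.S and LOC121398066 rest on libraries at 0 counts and are not bounds. At LOC121398066 the division of reads among near-identical histone copies is also uncertain. The calls on astl2f.S, crisp1.5.S and LOC108699319 were lost without any 1 of the 3 treated large-cohort libraries, and that on LOC121398066 without thioridazine large 1. Groups of 3 libraries are too small to search for outlying samples.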

How the results depend on the processing

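No call of the 573 changed direction under any alternative. The number of genes called in large cohorts was 57 with 2 surrogate variables (31 higher, 26 lower), 42 with 1 (21 higher, 21 lower), 371 with no filter beyond 1 count (149 higher, 222 lower) and 878 with quality weights (368 higher, 510 lower). With edgeR it was 686, with DESeq2 748, with RLE scaling 594, above 5 CPM in 3 libraries 667, with the large cohorts alone 776 and from the deposited log2 CPM 703. Without single large-cohort libraries it ranged from 138 to 534, the rises from 53 to 251 and the falls from 85 to 283. The 2 surrogate variable fit shared 54 calls and the 1 surrogate variable fit 42 with the 573. The interaction called 5 genes without alternatives, 19 with 2 surrogate variables, 23 with 1, 24 with edgeR, 55 with DESeq2, 11 with no filter beyond 1 count, 14 above 5 CPM, 23 from the deposited log2 CPM, and between 1 and 40 without single libraries.

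Replicate numbers are shared between the groups in the labels, but the deviations of same-numbered control and treated libraries correlated at -0.08, 0.04 and 0.04 across genes, so the numbers were not taken to pair the samples. With a replicate block 525 genes were called, 472 of them among the 573, and the interaction called 9.

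The genes chosen for the text, which are not the full set of the naming rule, held 170 called genes. Of these 60 stayed called without each of the 6 large-cohort libraries, 28 of them also in every other fit that tested them. Another 13 were lost whichever library was left out. With 2 surrogate variables 130 of the 170 lost the call. The uncalled col2a1.L took the other sign with 2 surrogate variables (log2 fold change 0.15, adjusted p = 0.80) and with 1 (0.092, adjusted p = 0.94), against -0.24 without them, and the uncalled actc1.L did so without thioridazine large 1 (-0.026, adjusted p = 0.94, against 0.09), ranging up to 0.22 as single libraries were left out. Of 54 list medians, 25 moved by more than the spread between replicates with 2 surrogate variables and 14 took the other sign, against 30 and 15 with 1, and none moved with the replicate block, edgeR, DESeq2 or RLE scaling. Depth limits the genes of a few CPM, where 3 counts in a library are 0.404 to 0.614 CPM.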

Other observations

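Some called genes lay outside the lists and were chosen after their values were seen. mfsd2a.S, a carrier of lysophospholipids across membranes, was at 5.90, 3.82 and 3.43 CPM in control large 1 to 3 and 11, 9.64 and 12.6 CPM in thioridazine large 1 to 3 (log2 fold change 1.28, SE 0.27, adjusted p = 0.023). The uromodulin locus LOC108709516 was at 0.399, 0.207 and 0.742 CPM and 5.52, 5.09 and 7.64 CPM (log2 fold change 3.59, SE 0.52, adjusted p = 0.0029). Both copies of sall4, a zinc finger factor of stem and limb bud cells, rose. sall4.L went from 18.7, 19.6 and 15.7 CPM to 34.7, 41.5 and 41.6 CPM (log2 fold change 1.12). sall4.S went from 15.6, 17.8 and 14.8 CPM to 25.9, 34.8 and 27.2 CPM (0.86). The call on sall4.S was lost without any 1 large-cohort library but thioridazine large 1. That on sall4.L was lost without control large 1, control large 3, thioridazine large 2 or thioridazine large 3. The lysosomal hydrolase naglu.L was at 101, 96.9 and 95.3 CPM and 128, 129 and 121 CPM (log2 fold change 0.37, SE 0.07, adjusted p = 0.012). The interferon-inducible gene ifitm3.L was at 115, 128 and 119 CPM and 177, 162 and 172 CPM (log2 fold change 0.50, SE 0.08, adjusted p = 0.0043). In small cohorts naglu.L and ifitm3.L had log2 fold changes of -0.20 and -0.13, and the difference between cohort sizes did not pass the interaction test (adjusted p = 0.064 and 0.079), though it did at both genes when the filter was raised to 5 CPM in 3 libraries.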
